A study of Saccharomyces cerevisiae and Kluyveromyces lactis with 95 samples.

Results

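The response of *S. cerevisiae* to protein kinase A (PKA) inhibition in the absence of Msn2 and Msn4 was measured in 8 libraries, 4 from cultures given 1-NM-PP1 and 4 from cultures given DMSO, out of 60 *S. cerevisiae* libraries and 95 in the whole series. The members were chosen by their titles, as the PKA-AS strain with *MSN2* and *MSN4* deleted, with and without drug, and earlier results of these data were known at the time. PKA-AS denotes strains of the W303 background in which all PKA catalytic subunits carry a gatekeeper methionine changed to glycine, so that the bulky analog 1-NM-PP1 blocks the kinase, and the same alleles are present in the drug and DMSO cultures. The PKA-AS parent strain also carried a nuclear marker made of Nhp6a and the fluorescent protein IRFP. The groups used here were PKA-AS ΔMsn2/4 with 3 µM 1-NM-PP1 or DMSO (4 cultures each), PKA-AS with no deletion (4 each), PKA-AS ΔMsn2/4 ΔRph1/Gis1, called the quadruple deletion (4 each), and PKA-WT ΔMsn2/4, whose PKA lacks the gatekeeper changes (3 each). All were grown exponentially in YPD at 30 °C and collected 50 min after drug or DMSO was added. The ΔMsn2/4 PKA-AS strain is 1 clone, made by removing each gene from 250 bases before its start codon to its stop codon, so a change private to that clone cannot be told apart from the deletions. *MSN2* (chromosome XIII, 344403 to 346517, minus strand) and *MSN4* (chromosome XI, 323228 to 325120, plus strand) are given in R64 coordinates of their coding sequences.

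In glucose, PKA is held active by cAMP, promotes ribosome production and keeps stress genes silent. Msn2 and Msn4 are paralogous zinc finger activators that PKA keeps in the cytoplasm. When PKA activity drops they enter the nucleus and bind the stress response element (STRE), the pentamer CCCCT, in the promoters of genes for stress tolerance, reserve carbohydrates and respiration. Rph1 and Gis1 are a second pair of paralogous zinc finger regulators that bind related sites, and the repression of ribosome genes on PKA inhibition runs through other factors such as Sfp1 and the Dot6 and Tod6 repressors.

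The ΔMsn2/4 libraries held 188289 to 2610714 counts on genes (median 1593078), with 78.6 to 85.9% of counted reads on genes. The 1-NM-PP1 library of culture 3 was the shallow one, with 188289 counts, so that 1 count in it was worth 3.62 CPM (counts scaled by library total and TMM factor). The deleted genes were low but not at 0. *MSN2* had 4, 1, 1 and 2 counts in the ΔMsn2/4 1-NM-PP1 libraries and 3, 1, 0 and 0 in the DMSO libraries, against 6 to 9 counts in the 1-NM-PP1 and 3 to 15 counts in the DMSO libraries with no deletion. Scaled for depth, *MSN2* overlapped between the strains. It was at 3.62 CPM in the shallow 1-NM-PP1 library, against 2.94 to 5.28 CPM with drug and no deletion. In DMSO culture 1 it was at 2.19 CPM, against 1.50 to 4.47 CPM with DMSO and no deletion. *MSN4* had 68, 21, 0 and 2 counts in the ΔMsn2/4 1-NM-PP1 libraries and 7, 1, 1 and 1 in the DMSO libraries, against 22 to 68 and 13 to 37 counts with no deletion, so its level in the 1-NM-PP1 library of culture 1 did not separate the strains. Counting included 3′ UTRs, which the deletion leaves in place, and the source of the *MSN4* counts was not tested. Over all strains of the species, *MSN2* had a median of 1 count (0 to 4) in the 28 cultures labelled as deleted and 7 (1 to 42) in the 28 others, and *MSN4* a median of 8 (0 to 69) and 39 (8 to 223). In DMSO culture 1, cytoplasmic ribosomal protein genes took 31.1% of the counts, against 20.7 to 22.6% in the DMSO libraries of cultures 2 to 4, and calls that rest on that library are given with and without it.

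Without Msn2/4, 1194 transcripts still changed with 1-NM-PP1 in the PKA-AS strain, and the repressed genes outnumbered the activated ones. In the edgeR quasi-likelihood fit, with p values adjusted over 5779 genes, 162 genes were activated (log2 fold change, LFC, 1-NM-PP1 over DMSO, above 2 with an adjusted p under 0.01), 2.80% of those tested, and 381 genes were repressed (LFC below -2), 6.59%. At any LFC, 502 genes rose (8.69%) and 692 fell (12.0%). Fitting the compared groups alone gave 181 risen and 365 fallen genes, with 109 activated and 284 repressed, and a test against an LFC of 2 gave 23 activated and 106 repressed. With no deletion, 562 genes were activated (9.72%) and 725 repressed (12.5%). Without the shallow library the ΔMsn2/4 counts were 163 activated and 344 repressed, with 152 and 336 genes in common with the calls from all 8 libraries. Of the 162 activated genes, 150 were higher with drug in all 4 cultures, and of the 381 repressed genes 376 were lower in all 4. These genes were called on the same 8 libraries, so a shared sign is largely built in and is not separate support.

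The response shared most of its genes with the response with no deletion. Of the 562 genes activated with no deletion, 147 (26.2%) were activated in ΔMsn2/4, and they made up 90.7% of its 162. Of the same 562 genes, 293 (52.1%) rose in ΔMsn2/4 and 0 fell. Their median LFC was 1.56 in ΔMsn2/4 and 3.01 with no deletion, beside 0.03 and 0.00 over all genes tested. Of the 725 genes repressed with no deletion, 374 (51.6%) were repressed in ΔMsn2/4, which is 98.2% of its 381, and their median LFC was -2.16 in ΔMsn2/4 and -3.68 with no deletion. Across the 5779 genes, which are not independent replicates, the LFCs of both strains had a Pearson r of 0.811 and a Spearman rho of 0.789. Testing the difference of the LFCs themselves (ΔMsn2/4 minus no deletion, an interaction term), 203 genes had a lower LFC in ΔMsn2/4 (3.51%) and 292 a higher one (5.05%). Of the 203, 197 rose with no deletion and 97 of these 203 still rose in ΔMsn2/4, while of the 292, 284 fell with no deletion and 184 still fell in ΔMsn2/4. Over all genes tested, 20.7% rose and 21.2% fell with no deletion, and 8.69% rose and 12.0% fell in ΔMsn2/4. The difference is computed from both responses, so these overlaps are partly built in. Without the shallow library, 174 genes were lower and 284 higher.

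**Figure D1:**
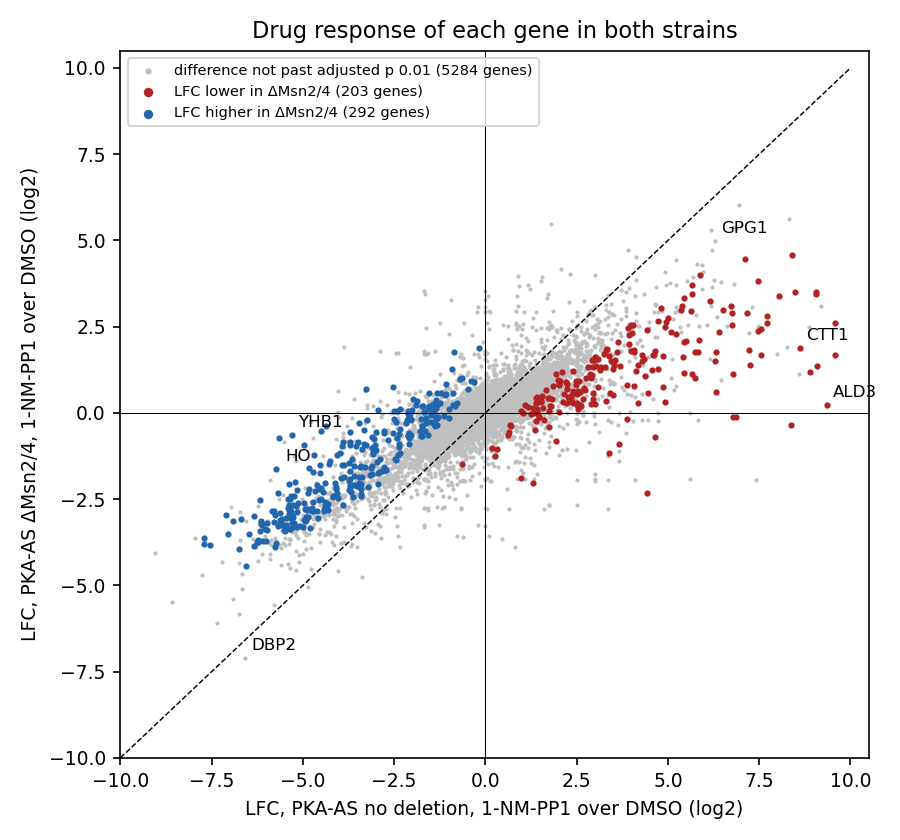
LFC of each of the 5779 genes tested (log2, 1-NM-PP1 over DMSO) in PKA-AS ΔMsn2/4 (vertical axis) against PKA-AS with no deletion (horizontal axis); the dashed line marks equal LFCs, red points the 203 genes with a lower LFC in ΔMsn2/4 and blue points the 292 with a higher one. Red points lie below the line at the right and blue points above it at the left, and labelled genes include *ALD3*, at 0.22 in ΔMsn2/4 and 9.35 with no deletion.

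The 12 genes named for the highest LFCs without Msn2/4 have varied functions. *HSP12*, a small membrane-stabilizing stress protein (chromosome VI, 107256 to 107585, plus strand), had 863, 1132, 626 and 818 CPM in the 1-NM-PP1 libraries, against 2.19, 3.42, 33.1 and 32.8 CPM in the DMSO libraries (LFC 5.61 ± 0.99, adjusted p = 1.2e-05). The 4 drug libraries lie far above the 4 DMSO libraries, yet *HSP12* reached 19459 to 36272 CPM with drug and no deletion, and the difference of its LFCs was -2.69 ± 1.18, adjusted p = 0.13. *GPG1*, a proposed gamma subunit of a heterotrimeric G protein (chromosome VII, 280777 to 281157, minus strand), had 122, 167, 145 and 219.5 CPM in the 1-NM-PP1 libraries, against 5.1, 4.7, 3.31 and 7.97 CPM in the DMSO libraries (LFC 4.98 ± 0.41, adjusted p = 3.2e-13). All its drug libraries lie far above DMSO, and with no deletion it was at 307 to 430.3 CPM with drug. *TMA10*, a ribosome-associated protein, had 37.3, 48.7, 21.7 and 32 CPM in the 1-NM-PP1 libraries, against 1.46, 0, 0.662 and 1.77 CPM in the DMSO libraries (LFC 5.38 ± 0.63, adjusted p = 2.1e-09). *NDE2*, an external mitochondrial NADH dehydrogenase, had 33.8, 45.3, 28.9 and 110.1 CPM in the 1-NM-PP1 libraries, against 2.19, 1.71, 0.662 and 5.31 CPM in the DMSO libraries (LFC 4.58 ± 0.48, adjusted p = 1.8e-10), and its highest drug library was that of culture 4. With no deletion it was at 457 to 776 CPM with drug. *GLC3*, the glycogen branching enzyme, had 53.7, 32.4, 21.7 and 28.4 CPM in the 1-NM-PP1 libraries, against 1.46, 2.13, 0.662 and 1.77 CPM in the DMSO libraries (LFC 4.47 ± 0.41, adjusted p = 5.2e-12).

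The proline permease gene *PUT4* had 182, 126, 32.5 and 12.1 CPM in the 1-NM-PP1 libraries, against 5.83, 3.84, 1.98 and 5.31 CPM in the DMSO libraries, with cultures 1 and 2 well above cultures 3 and 4 (LFC 4.45 ± 0.66, adjusted p = 4.6e-07). *AMS1*, the vacuolar alpha-mannosidase, showed the same order with 66.1, 59, 18.1 and 12.1 CPM in the 1-NM-PP1 libraries, against 8.02, 0, 0.662 and 1.77 CPM in the DMSO libraries (LFC 4.09 ± 0.73, adjusted p = 1.5e-05). *FMP33*, a mitochondrial protein of unknown function, was even across cultures, at 38.1, 49.5, 32.5 and 37.7 CPM in the 1-NM-PP1 libraries, against 2.92, 1.28, 2.65 and 3.54 CPM in the DMSO libraries (LFC 4.01 ± 0.35, adjusted p = 9.3e-13). *CYC7*, the cytochrome c isoform of low oxygen, was sparse, with 97 counts in the drug libraries and 4 in the DMSO libraries (LFC 3.93 ± 1.04, adjusted p = 0.0027). The drug library of culture 4 overlaps DMSO, and *CYC7* did not pass without DMSO culture 2 or 3 or without drug culture 2 (adjusted p = 0.013 to 0.019). *YTP1*, a membrane protein of unknown function, had 99, 32, 1 and 4 counts with drug and 1 count in all DMSO libraries together, a ratio of scaled counts of 111 (95% counting interval 19.6 to 4424). *YJL163C*, which encodes a protein of unknown function, had 89, 81.8, 199 and 243 CPM in the 1-NM-PP1 libraries, against 2.19, 12.4, 10.6 and 3.54 CPM in the DMSO libraries (LFC 4.31 ± 0.55, adjusted p = 1.8e-08). *YIL100C-A* (LFC 4.03 ± 0.78, adjusted p = 5.5e-05) has no locus in the annotation used here, and because no strand setting of the counting was found, reads of a gene that overlaps it cannot be told apart. Of the 162 activated genes, 8 had 3 or fewer counts in all DMSO libraries together.

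At the other end, the genes named for the lowest differences had a far smaller LFC in ΔMsn2/4 than with no deletion. *ALD3*, a cytoplasmic aldehyde dehydrogenase of stress (chromosome XIII, 599352 to 600872, minus strand), had 43, 54.4, 54.2 and 71 CPM in the 1-NM-PP1 libraries, against 21.9, 41.8, 54.3 and 73.5 CPM in the DMSO libraries, and these groups overlap (LFC 0.22 ± 0.50, adjusted p = 0.81). With no deletion it was at 21126 to 40713 CPM with drug against 23 to 79 CPM with DMSO, and the difference of the LFCs was -9.13 ± 0.80, adjusted p = 5.3e-12. *TSA2*, a thioredoxin peroxidase, had 14.7, 14.5, 10.8 and 7.1 CPM in the 1-NM-PP1 libraries, against 15.3, 15.8, 5.95 and 15.9 CPM in the DMSO libraries and also overlapped (difference -6.91 ± 0.50, adjusted p = 2.4e-14). With no deletion its drug libraries held 1411 to 1743 CPM. *CTT1*, the cytosolic catalase, had 30.0, 48.7, 28.9 and 24.9 CPM in the 1-NM-PP1 libraries, against 2.19, 5.55, 11.9 and 17.7 CPM in the DMSO libraries, so that all drug libraries were above all DMSO libraries (LFC 1.88 ± 0.48, adjusted p = 0.0018). With no deletion *CTT1* was at 3841 to 5292 CPM with drug, and the difference of the LFCs was -6.74 ± 0.69, adjusted p = 5.0e-10. The rise of *CTT1* in ΔMsn2/4 did not pass with the culture as a block, without DMSO culture 1 or 2 or without drug culture 2 (adjusted p = 0.011 to 0.015).

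*SIP18*, a hydrophilin of osmotic and desiccation stress, had 11.8, 14.1, 3.62 and 10.7 CPM in the 1-NM-PP1 libraries, against 6.56, 3.42, 1.32 and 2.66 CPM in the DMSO libraries (LFC 1.67 ± 0.44, adjusted p = 0.0024). With no deletion it was at 2335 to 4169.6 CPM with drug (difference -7.90 ± 0.64, adjusted p = 5.6e-13). Its small rise in ΔMsn2/4 did not pass with the culture as a block, without DMSO culture 3 or without drug culture 2 (adjusted p = 0.013 to 0.029). *DDR2*, a small multistress gene, had 10.7, 16.7, 7.23 and 2.13 CPM in the 1-NM-PP1 libraries, against 2.19, 0, 0 and 5.31 CPM in the DMSO libraries, overlapping at culture 4 (difference -6.95 ± 1.51, adjusted p = 0.00078). The difference of *DDR2* did not pass without DMSO culture 4 (adjusted p = 0.09). *SPG4*, a gene required in stationary phase, had 10 counts with drug and 3 with DMSO in ΔMsn2/4, a ratio of 2.73 (95% counting interval 0.702 to 15.4). With no deletion its drug libraries held 136 to 341 CPM (difference -7.72 ± 1.71, adjusted p = 0.00099), and the difference did not pass without DMSO culture 1 (adjusted p = 0.093). *YBR116C* (difference -7.71 ± 1.17, adjusted p = 3.8e-06) and *YDR491C* (difference -6.97 ± 1.87, adjusted p = 0.0084) have no locus in the annotation used here. *YDR491C* had 3 counts with drug and 3 with DMSO in ΔMsn2/4, a ratio of 0.818 (95% counting interval 0.11 to 6.1). Its difference did not pass with the culture as a block, without DMSO culture 2 or 3 or without drug culture 1, 2 or 3 (adjusted p = 0.011 to 0.16), nor without some of the libraries with no deletion.

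**Figure D2:**
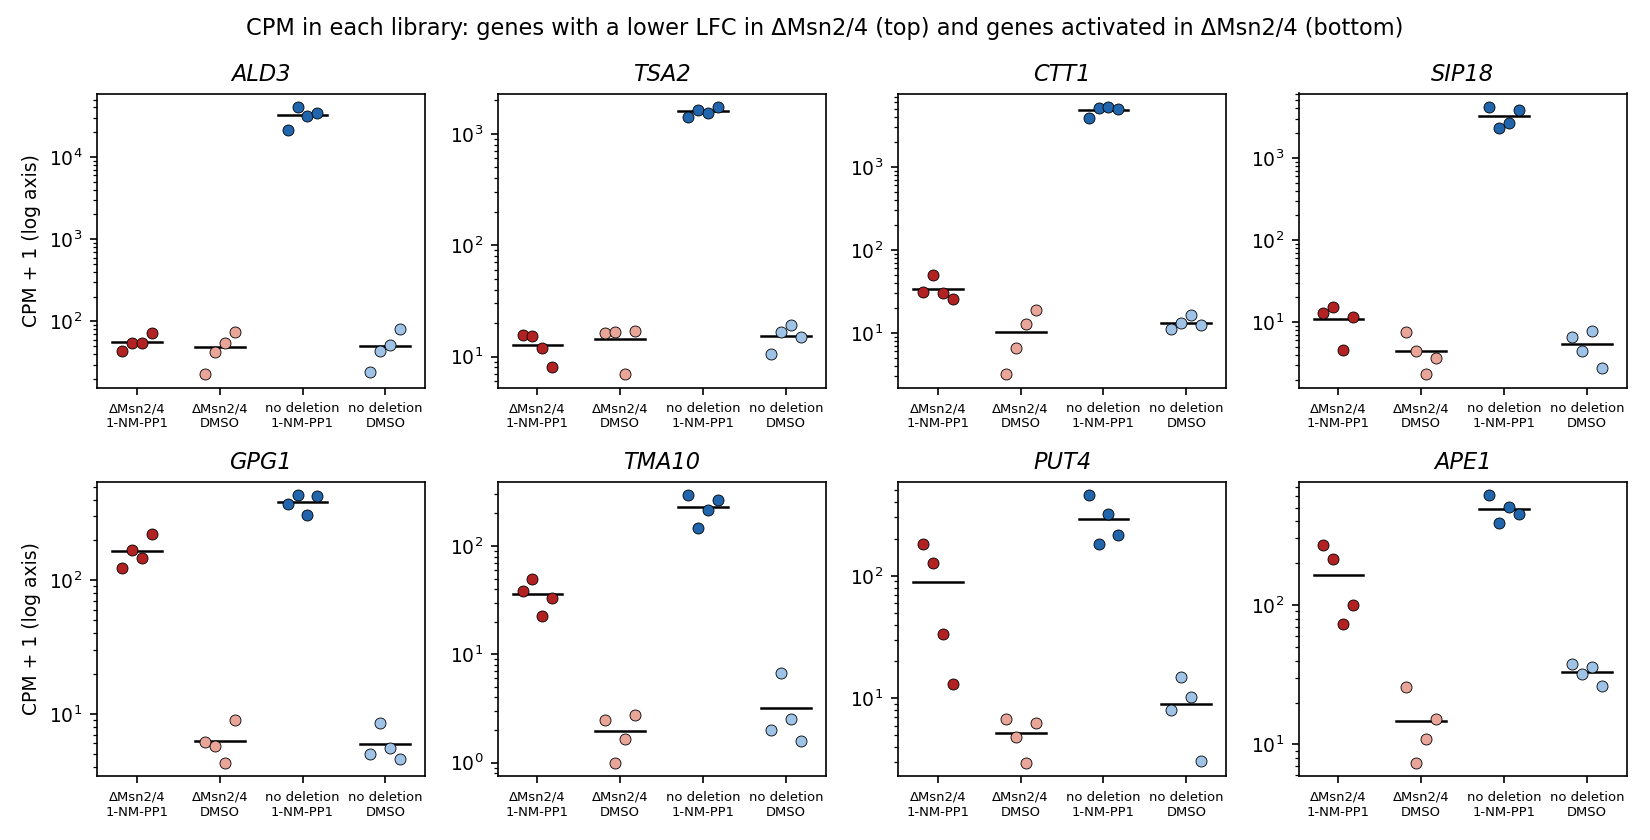
CPM plus 1 (log axis) in each library for 8 genes, with 1 point per culture and a bar at the mean; from left to right PKA-AS ΔMsn2/4 with 1-NM-PP1 and with DMSO, then PKA-AS with no deletion in the same order. In the top row *ALD3* and *TSA2* overlap between drug and DMSO in ΔMsn2/4, and in the bottom row *GPG1*, *TMA10*, *PUT4* and *APE1* stand above DMSO in every ΔMsn2/4 drug library.

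The letters of the STRE were frequent in the promoters of both sets of genes. In the 700 bases before the start codon (R64), CCCCT on either strand was present in 45.0% of the 5489 promoters read. It was present in 81.1% of the promoters of the genes activated in ΔMsn2/4 (129 of 159; 95% Wilson interval 74.3 to 86.5%), in 76.6% of those with a lower LFC in ΔMsn2/4 than with no deletion, in 74.3% of those activated with no deletion and in 36.8% of those repressed in ΔMsn2/4. The post-diauxic shift element, written TNAGGGAT, was in 11.9% of the promoters activated in ΔMsn2/4 and 5.78% of all. TTCNNGAA, part of the heat shock element, was in 27.0% and 28.7%, and CCAAT in 79.2% and 77.3%. No STRE match overlapped a TNAGGGAT match, but the letters of both motifs nearly fix that result in advance. These are matches of letters, not bound sites, and no test was made on them.

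The stretches below are shown because they belong to genes with different responses. *HSP12*, *TPK2* and *PNC1* rose in ΔMsn2/4 with no difference from no deletion past the threshold. *NDE2* and *CTT1* rose in ΔMsn2/4 with a lower LFC than with no deletion (difference of *NDE2* -3.82 ± 0.74, adjusted p = 0.00017). *ALD3* and *DDR2* did not pass in ΔMsn2/4 (adjusted p = 0.81 and 0.039) and also have a lower LFC. Each is 100 bases of the coding strand's promoter, 5′ to 3′, from R64, with CCCCT or AGGGG in capitals. Their positions are *HSP12* chrVI:106802-106901 (+), *NDE2* chrIV:303018-303117 (+), *TPK2* chrXVI:165928-166027 (+), *PNC1* chrVII:428164-428263 (-), *ALD3* chrXIII:601060-601159 (-), *DDR2* chrXV:231915-232014 (-) and *CTT1* chrVII:654216-654315 (+).
HSP12: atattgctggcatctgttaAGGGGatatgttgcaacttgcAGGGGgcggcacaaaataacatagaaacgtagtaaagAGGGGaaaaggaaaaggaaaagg
NDE2: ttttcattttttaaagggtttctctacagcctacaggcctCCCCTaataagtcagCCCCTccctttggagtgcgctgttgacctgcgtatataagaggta
TPK2: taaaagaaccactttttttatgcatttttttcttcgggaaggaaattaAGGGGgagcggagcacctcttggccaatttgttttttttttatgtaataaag
PNC1: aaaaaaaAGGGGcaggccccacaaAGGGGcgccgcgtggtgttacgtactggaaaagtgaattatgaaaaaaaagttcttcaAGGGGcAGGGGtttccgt
ALD3: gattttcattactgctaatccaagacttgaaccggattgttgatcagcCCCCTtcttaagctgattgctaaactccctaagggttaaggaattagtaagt
DDR2: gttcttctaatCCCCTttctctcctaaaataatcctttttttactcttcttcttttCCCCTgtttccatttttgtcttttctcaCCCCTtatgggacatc
CTT1: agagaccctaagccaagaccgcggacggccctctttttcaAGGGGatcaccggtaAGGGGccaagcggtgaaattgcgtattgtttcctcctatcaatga

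Over the whole 700 bases, *HSP12* held 7 matches, *PNC1*, *CTT1* and *DDR2* held 4 each, *NDE2* and *ALD3* held 2 each, and *TPK2* held 1. *GPG1*, *AMS1* and *YJL163C*, among the 12 genes named for the highest LFCs, and *SPG4*, among the 8 named for the lowest difference, held none in this window.

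Reserve carbohydrate and stress protein genes rose in part. Over all genes tested, 8.69% rose and 12.0% fell in ΔMsn2/4, and 3.51% had a lower LFC there than with no deletion. Of the 18 stress-induced hydrophilic and small proteins tested, 11 rose and 0 fell in ΔMsn2/4, with a median LFC of 2.52 against 7.47 with no deletion, and 12 of the 18 had a lower LFC in ΔMsn2/4 by the test of the difference. Together these genes took 0.247, 0.297, 0.208 and 0.229% of the counts in the 1-NM-PP1 libraries and 0.0137, 0.0217, 0.0256 and 0.0318% in the DMSO libraries, against a mean of 6.89% with drug and 0.0444% with DMSO and no deletion. *RTN2*, a reticulon (3.52 in ΔMsn2/4, 9.06 with no deletion), *MSC1*, linked to recombination (3.38 and 8.05), and *FMP16*, a mitochondrial stress protein (2.60 and 7.72), all passed as risen in both strains, and their LFCs differed between strains (adjusted p = 1.7e-05, 1.1e-11 and 4.7e-10). *PHM7*, a membrane protein of unknown function, stood at -0.35 in ΔMsn2/4 (adjusted p = 0.87) and 8.38 with no deletion.

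Of 13 glycogen genes, 5 rose and 0 fell, beside 8.69% and 12.0% of all genes (median LFC 1.39 in ΔMsn2/4, 3.53 with no deletion). Besides *GLC3*, these were the phosphorylase *GPH1* (LFC 3.74 ± 0.65, adjusted p = 9.6e-06), the phosphoglucomutase *PGM2* (LFC 2.89 ± 0.49, adjusted p = 6.8e-06) and the synthases *GSY1* (LFC 2.55 ± 0.67, adjusted p = 0.0027) and *GSY2* (LFC 1.76 ± 0.22, adjusted p = 1.5e-08). *GSY1* did not pass with the culture as a block, without DMSO culture 2 or 3 or without drug culture 1 (adjusted p = 0.013 to 0.022). The isozyme *PGM1* had an LFC of 0.20 (adjusted p = 0.74). Of 7 trehalose genes, 4 rose and 0 fell, with 2 risen without drug culture 1 (median 1.27 and 3.18). The trehalases *ATH1* (LFC 2.31 ± 0.50, adjusted p = 0.00026) and *NTH2* (LFC 1.54 ± 0.25, adjusted p = 3.2e-06) rose along with the synthase subunits *TPS1* (LFC 1.82 ± 0.45, adjusted p = 0.0013) and *TPS3* (LFC 0.97 ± 0.27, adjusted p = 0.0041). *TPS1* did not pass without drug culture 1 (adjusted p = 0.013), and *TPS3* did not pass with the culture as a block, without DMSO culture 3 or without drug culture 1 or 2 (adjusted p = 0.011 to 0.034).

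Of 26 chaperone genes, 5 rose and 5 fell, with 3 fallen without DMSO culture 1, beside 8.69% risen and 12.0% fallen over all genes tested. The small heat shock protein *HSP26* had 95.9, 68.9, 36.2 and 13.5 CPM in the 1-NM-PP1 libraries, against 4.37, 3.84, 5.95 and 5.31 CPM in the DMSO libraries (LFC 3.51 ± 0.51, adjusted p = 2.9e-07), with the drug libraries of cultures 1 and 2 highest. It was at 1045 to 2457 CPM with drug and no deletion, and the difference of the LFCs was -4.97 ± 0.71, adjusted p = 1.0e-06. *HSP42* (LFC 2.73, and 3.72 with no deletion) and the Hsp110 homolog *SSE2* (2.76 and 5.02) also rose, while the ribosome-associated Hsp70s *SSB1* (-3.57 and -6.05) and *SSB2* (-2.83 and -4.74) fell. *SSB1* and *SSB2* are near-identical copies whose reads the counting could split, and *SSB1* did not pass without DMSO culture 1 (adjusted p = 0.015). Of 21 antioxidant enzyme genes, 8 rose, 0 fell and 8 had a lower LFC in ΔMsn2/4 (3.51% over all genes tested), with medians of 0.42 and 2.25. The median in ΔMsn2/4 was 0.80 without DMSO culture 1 and 0.73 without drug culture 4, and 5 rose without DMSO culture 2. The mitochondrial peroxiredoxin *PRX1* (LFC 2.68 ± 0.52, adjusted p = 6.6e-05) and the mitochondrial thioredoxin reductase *TRR2* (LFC 1.66 ± 0.32, adjusted p = 4.6e-05) were among those that rose.

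Of 37 autophagy genes, 17 rose and 0 fell, beside 8.69% and 12.0% of all genes. The list had medians of 1.25 in ΔMsn2/4 and 2.11 with no deletion, and the median difference by culture was 1.07, 1.04, 0.94 and 1.32. *ATG8*, which encodes the ubiquitin-like protein of the autophagosome membrane (LFC 2.56 ± 0.29, adjusted p = 8.8e-10), *ATG34*, a cargo adaptor of the vacuolar targeting pathway (LFC 3.72 ± 0.53, adjusted p = 1.8e-07), and the ER-phagy receptors *ATG39* (LFC 3.31 ± 0.59, adjusted p = 1.3e-05) and *ATG40* (LFC 2.88 ± 0.28, adjusted p = 1.6e-11) rose. *ATG40* was also activated in PKA-WT ΔMsn2/4, where 1-NM-PP1 has no engineered target. The vacuolar lipase *ATG15* had the largest LFC of the list (5.47 ± 1.53, adjusted p = 0.005), but it did not pass without DMSO culture 1, 2, 3 or 4 or without drug culture 4 (adjusted p = 0.011 to 0.073). *APE1*, the aminopeptidase that is carried by this route, had 267, 214, 72.3 and 98.8 CPM in the 1-NM-PP1 libraries, against 24.8, 6.4, 9.92 and 14.2 CPM in the DMSO libraries (LFC 3.61 ± 0.44, adjusted p = 5.4e-09). With no deletion it was at 388 to 610.1 CPM with drug, and the difference of the LFCs was -0.32 ± 0.57, adjusted p = 0.82. Of 33 proteasome genes, 7 rose and 0 fell (median 0.72 and 1.07), led by the base ATPase *RPT2* (LFC 1.18 ± 0.24, adjusted p = 0.00014) and the core subunits *PRE6* (LFC 1.11 ± 0.29, adjusted p = 0.0026) and *PRE8* (LFC 1.08 ± 0.21, adjusted p = 4.6e-05). Without DMSO culture 1, and likewise without DMSO culture 2, 3 of the 33 rose.

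Among genes of carbon and energy metabolism, most of each list did not pass, and over all genes tested 8.69% rose and 12.0% fell. Of 59 respiratory chain genes 9 rose and 0 fell (1 fell without drug culture 4). Those that rose include *NDE2*, *CYC7*, the ATP synthase inhibitor *STF1* (LFC 3.78 ± 0.49, adjusted p = 2.2e-08), the internal NADH dehydrogenase *NDI1* (LFC 1.87 ± 0.24, adjusted p = 2.6e-08) and *COX5B*, the cytochrome c oxidase subunit of low oxygen (LFC 2.88 ± 0.20, adjusted p = 1.2e-15). *COX5B* also rose in PKA-WT ΔMsn2/4, where 1-NM-PP1 has no engineered target. Of 17 TCA cycle genes, 2 rose and 1 fell, with 4 risen and 0 fallen without DMSO culture 1 and 1 risen without DMSO culture 3. Of 71 mitochondrial ribosomal protein genes 3 rose and 0 fell, with 1 risen without the shallow library. Of 15 genes of gluconeogenesis and the glyoxylate cycle, 4 rose and 0 fell (2 rose without DMSO culture 2), including the cytosolic malate dehydrogenase *MDH2* (LFC 2.01 ± 0.36, adjusted p = 1.5e-05) and *ICL2*, a mitochondrial 2-methylisocitrate lyase (LFC 1.43 ± 0.21, adjusted p = 3.4e-07). Of 15 genes of peroxisomal fatty acid oxidation, 2 rose and 1 fell (1 rose without drug culture 2). The dienoyl-CoA reductase *SPS19* rose (LFC 2.91 ± 0.58, adjusted p = 9.2e-05), and the thiolase *POT1* (LFC 3.45 ± 0.81, adjusted p = 0.00072) did not pass with the culture as a block or without drug culture 2 (adjusted p = 0.01 to 0.019).

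Of 22 glycolysis genes, 3 rose and 0 fell, beside 8.69% and 12.0% of all genes, and without the shallow library 5 rose. The regulatory kinase *PFK26* (LFC 2.29 ± 0.21, adjusted p = 5.2e-12) and the phosphoglycerate mutase homolog *GPM2* (LFC 3.08 ± 0.50, adjusted p = 2.9e-06) rose. *PDC6*, a minor pyruvate decarboxylase (LFC 4.51 ± 1.23, adjusted p = 0.0037), did not pass without DMSO culture 1, 3 or 4 or without drug culture 2 (adjusted p = 0.011 to 0.053). The whole list took 15.2, 15.6, 3.79 and 2.98% of counts in the 1-NM-PP1 libraries and 10.3, 8.08, 3.35 and 8.76% in the DMSO libraries, with the drug libraries of cultures 1 and 2 above all DMSO libraries and that of culture 4 below them. In the pentose phosphate pathway, 2 of 13 genes rose and 2 fell. The isozymes *SOL4* (LFC 2.42 in ΔMsn2/4, 7.56 with no deletion) and *GND2* (2.37 and 7.46) rose with lower LFCs in ΔMsn2/4 (adjusted p of the difference = 5.7e-09 and 1.3e-06), and *RKI1*, ribose-5-phosphate ketol-isomerase, fell (LFC -5.10 ± 0.63, adjusted p = 8.5e-09). Of 11 glycerol genes 3 rose and 2 fell, with 0 fallen without DMSO culture 1 and 1 without any other library except DMSO culture 3 or drug culture 2. The glycerol-3-phosphate dehydrogenases *GUT2* of mitochondria (LFC 2.98 ± 0.37, adjusted p = 9.8e-09) and *GPD1* of the cytosol (LFC 2.39 ± 0.28, adjusted p = 1.8e-09) rose. Of 11 aldehyde and alcohol dehydrogenase genes 3 rose and 0 fell (1 fell without DMSO culture 1 or 3 or drug culture 2). The 3 include the mitochondrial *ALD4* (LFC 2.39 ± 0.34, adjusted p = 2.0e-07) and the cytosolic *ALD2* (LFC 2.66 ± 0.55, adjusted p = 0.00016), a neighbour and paralog of *ALD3*.

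Of 12 genes for hexose transport and phosphorylation 1 rose, the glucose sensor *SNF3* (LFC 1.77 ± 0.37, adjusted p = 0.00018), and 2 fell, *HXT1* and *HXT3*, which encode low affinity transporters (LFC -2.28 and -1.60). Without DMSO culture 1, or drug culture 3 or 4, 2 of the 12 rose. HXT genes are similar in sequence, so reads may be split between them. *SNF3* did not pass with the culture as a block (adjusted p = 0.017). *HXT1* did not pass without DMSO culture 1, 2 or 4 or without drug culture 1, 3 or 4 (adjusted p = 0.01 to 0.03), and *HXT3* did not pass without DMSO culture 1 (adjusted p = 0.01). Of 31 transcription factor genes of stress and nutrients, 3 rose and 4 fell, shares near the 8.69% and 12.0% of all genes. *XBP1*, a stress-induced repressor (LFC 3.83 ± 0.61, adjusted p = 2.0e-06), *CAT8*, an activator of gluconeogenesis (LFC 2.96 ± 0.42, adjusted p = 1.4e-07), and *USV1*, a stress-induced zinc finger factor (LFC 2.71 ± 0.56, adjusted p = 0.00015), rose. *TOD6*, a repressor of ribosome biogenesis genes, fell (LFC -3.76 ± 0.49, adjusted p = 3.4e-08). Of 18 cell wall mannoprotein genes 3 rose and 0 fell (1 rose without DMSO culture 3, and 1 without drug culture 2), led by the secreted glycoprotein *YGP1* (LFC 2.46 ± 0.48, adjusted p = 6.7e-05). Of the 8 kinases and endosulfines downstream of PKA, 2 rose, namely *PSK1*, a PAS kinase (LFC 1.63 ± 0.20, adjusted p = 5.2e-09), and *SIP2*, a subunit of the Snf1 kinase (LFC 1.43 ± 0.31, adjusted p = 0.00024). Of 48 members of the paralog pairs that the study discusses, a list the study chose on libraries of this series, 17 rose and 3 fell in ΔMsn2/4 (1 fell without DMSO culture 1). Those that rose include the peroxin *PEX18* (LFC 3.85 ± 0.76, adjusted p = 8.8e-05) and *MPC3*, a mitochondrial pyruvate carrier subunit (LFC 3.51 ± 0.62, adjusted p = 1.2e-05).

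**Figure D3:**
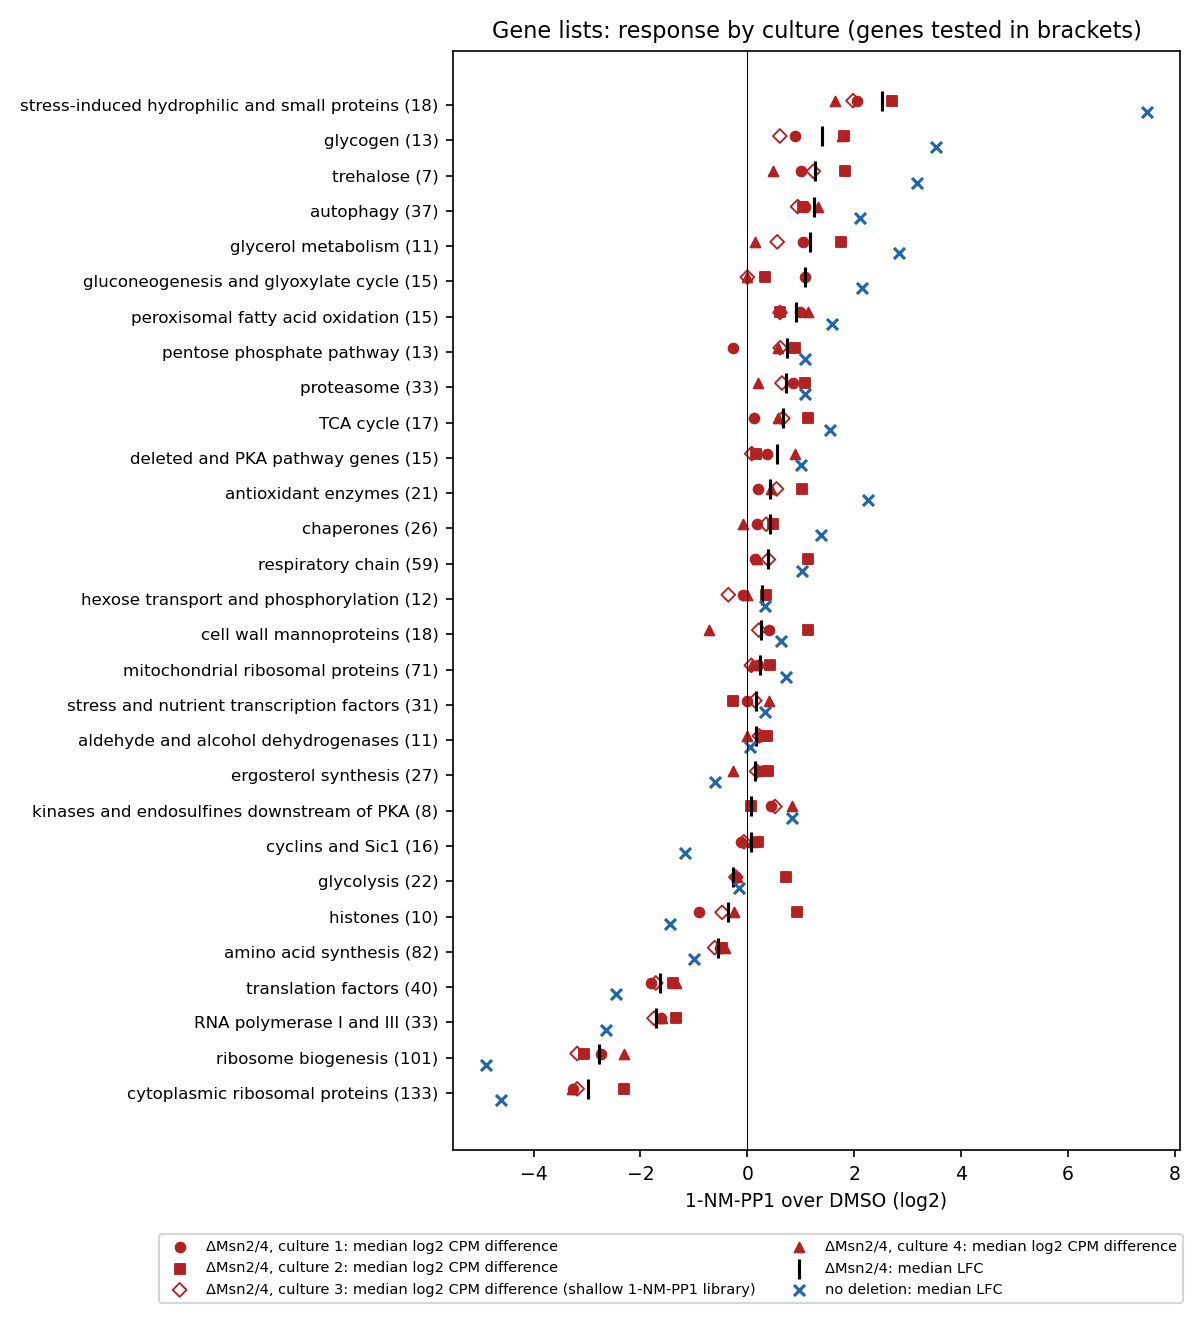
Median response of each gene list (log2, 1-NM-PP1 over DMSO): red symbols are the median difference in log2 CPM within each of the 4 PKA-AS ΔMsn2/4 cultures (open diamond, culture 3 with the shallow library), black bars the median LFC in ΔMsn2/4 and blue crosses the median LFC in PKA-AS with no deletion. Stress-induced hydrophilic proteins sit at 2.52 in ΔMsn2/4 and 7.47 with no deletion, and cytoplasmic ribosomal proteins at -2.99 and -4.61.

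Most genes of the ribosome biogenesis and ribosomal protein lists fell, against 12.0% of all genes tested. Of 101 ribosome biogenesis genes tested, 97 fell and 0 rose, with a median LFC of -2.78 in ΔMsn2/4 and -4.88 with no deletion. By culture the median difference was -2.73, -3.06, -3.19 and -2.30, and without the shallow library 93 fell. The list took 0.555, 0.501, 0.875 and 0.985% of counts with drug and 2.7, 3.56, 5.17 and 3.23% with DMSO, and no drug library reached the lowest DMSO library. *DBP2*, an RNA helicase of ribosome assembly and mRNA decay (chromosome XIV, 413639 to 416281, plus strand), had the lowest LFC among the genes named by rule (-7.11 ± 1.11, adjusted p = 1.4e-06), with 8.67, 10.3, 3.62 and 4.97 CPM in the 1-NM-PP1 libraries, against 2411, 593, 353 and 897 CPM in the DMSO libraries. *NSR1*, the yeast nucleolin, had 75.7, 30.5, 3.62 and 12.8 CPM in the 1-NM-PP1 libraries, against 4681, 391, 341 and 601 CPM in the DMSO libraries (LFC -5.49 ± 1.53, adjusted p = 0.0044). It did not pass without DMSO culture 1 or without drug culture 2, 3 or 4 (adjusted p = 0.016 to 0.045). The small subunit processome component *NAN1* had 0, 2, 1 and 0 counts with drug and 14, 38, 24 and 6 with DMSO, a ratio of 0.0299 (95% counting interval 0.00604 to 0.0905). *FAF1*, a 40S synthesis factor (LFC -4.50 ± 0.38, adjusted p = 5.1e-13), *NOP13*, a nucleolar RNA-binding protein (LFC -4.43 ± 0.41, adjusted p = 3.7e-12), and *SYO1*, which imports ribosomal proteins (LFC -5.06 ± 0.94, adjusted p = 3.0e-05), fell as well.

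Of 133 cytoplasmic ribosomal protein genes, 108 fell and 0 rose, with medians of -2.99 and -4.61. Of the 133, 132 were lower with drug in each of the 4 cultures, and the remaining gene, *RPL15B*, was higher with drug in each (LFC 0.74 ± 0.30, adjusted p = 0.063). They took 6, 5.14, 3.87 and 4.2% of the counts in the 1-NM-PP1 libraries and 31.1, 22.6, 20.7 and 21.8% in the DMSO libraries, with no overlap. With no deletion the share was 1.51% with drug and 27.1% with DMSO on average. Without DMSO culture 1, 82 of the 133 fell and the median LFC was -2.42. The genes with the most negative values rest on that library. *RPL9A* had 8.95, 5.71, 0 and 0.71 CPM in the 1-NM-PP1 libraries, against 1199, 63.6, 64.8 and 76.1 CPM in the DMSO libraries (LFC -6.08 ± 1.34, adjusted p = 0.00033), and without DMSO culture 1 it was at -3.71, adjusted p = 0.016. *RPL37B* had 7.22, 1.9, 7.23 and 2.13 CPM in the 1-NM-PP1 libraries, against 369.6, 15.8, 19.2 and 14.2 CPM in the DMSO libraries (LFC -4.59 ± 1.21, adjusted p = 0.0026, and -1.93, adjusted p = 0.22 without DMSO culture 1). *RPL10* (-1.64, adjusted p = 0.28), *RPL25* (-1.68, adjusted p = 0.28) and *RPS19B* (-1.98, adjusted p = 0.18) likewise did not pass without it. Many of these genes have near-identical paralogs, so the split of reads between copies is uncertain.

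Of 33 RNA polymerase I and III genes, 17 fell, 1 rose and 15 did not pass (12.0% fell and 8.69% rose over all genes), with medians of -1.70 and -2.64. *RPA43*, a polymerase I subunit, had 13.9, 10.7, 18.1 and 11.4 CPM in the 1-NM-PP1 libraries, against 171, 175, 196 and 167 CPM in the DMSO libraries (LFC -3.79 ± 0.26, adjusted p = 8.3e-16), and its drug libraries are tightly grouped far below DMSO. With no deletion it was at 0.49 to 1.01 CPM with drug, so that the LFC in ΔMsn2/4 was higher by 3.92 ± 0.41, adjusted p = 1.2e-09. *RPA135* (LFC -3.89), *RPA49* (-3.50), *RPA190* (-3.04) and *RPA34* (-2.89), further subunits of that polymerase, fell too. Of 40 translation factor genes, 21 fell and 1 rose. The elongation factor *YEF3* (LFC -2.86 ± 0.37, adjusted p = 2.4e-08) and *TIF4631*, an eIF4G (LFC -2.32 ± 0.29, adjusted p = 9.8e-09), were among the 21.

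The 12 genes named for the lowest LFCs also include genes of enzymes. *URA7*, a CTP synthase, had 4.33, 2.66, 3.62 and 5.68 CPM in the 1-NM-PP1 libraries, against 453, 155, 189 and 148 CPM in the DMSO libraries (LFC -5.84 ± 0.67, adjusted p = 1.1e-09). *GUA1*, GMP synthase, had 1.16, 1.14, 0 and 2.13 CPM in the 1-NM-PP1 libraries, against 80.9, 61.9, 92 and 22.1 CPM in the DMSO libraries (LFC -5.57 ± 0.87, adjusted p = 1.4e-06). *AAH1*, adenine deaminase, had 7.8, 6.47, 3.62 and 34.1 CPM in the 1-NM-PP1 libraries, against 500.0, 700.2, 537 and 609.9 CPM in the DMSO libraries, with culture 4 highest among the drug libraries (LFC -5.41 ± 0.46, adjusted p = 5.1e-13). The differences from the strain with no deletion did not pass for *URA7* (0.91 ± 0.91, adjusted p = 0.62), *GUA1* (0.21 ± 1.21, adjusted p = 0.96) or *AAH1* (1.51 ± 0.57, adjusted p = 0.073). *RMT2*, an arginine methyltransferase that modifies a ribosomal protein, had 5.2, 6.85, 7.23 and 12.8 CPM in the 1-NM-PP1 libraries, against 199.7, 197, 188 and 217 CPM in the DMSO libraries (LFC -4.66 ± 0.44, adjusted p = 7.2e-12). *FRE4*, a ferric reductase, had 2.31, 3.81, 0 and 0 CPM in the 1-NM-PP1 libraries, against 36.4, 124, 23.8 and 49.6 CPM in the DMSO libraries (LFC -4.75 ± 0.77, adjusted p = 2.9e-06). Of 82 amino acid synthesis genes, 11 fell, near the 12.0% of all genes, and 2 rose, with 0 risen without DMSO culture 1, 2 or 3 or drug culture 4. *ARO4* of aromatic amino acid synthesis was among the 11 (LFC -2.23 ± 0.31, adjusted p = 9.0e-08).

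**Figure D4:**
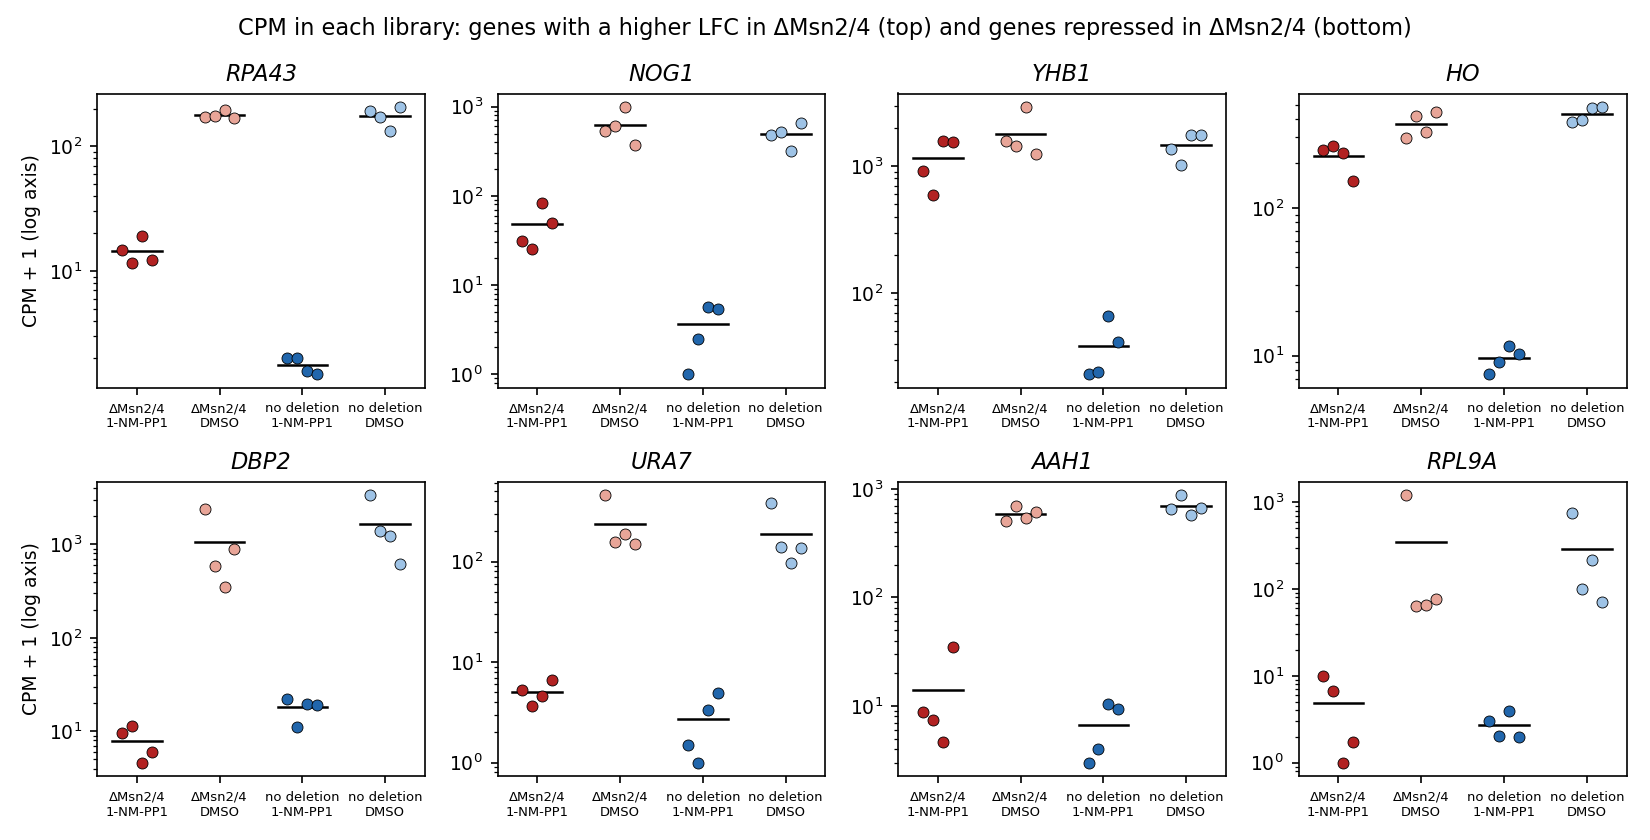
CPM plus 1 (log axis) in each library for 8 genes, with 1 point per culture and a bar at the mean; from left to right PKA-AS ΔMsn2/4 with 1-NM-PP1 and with DMSO, then PKA-AS with no deletion in the same order. *RPA43* and *NOG1* fell in ΔMsn2/4 but stayed above the drug libraries with no deletion, *YHB1* and *HO* fell with no deletion and did not pass in ΔMsn2/4, and *RPL9A* is led by DMSO culture 1 in both strains.

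Several genes that fell with no deletion had a higher LFC in ΔMsn2/4 and did not pass there. *HO*, the mating-type switching endonuclease, had 245, 263, 235 and 151 CPM in the 1-NM-PP1 libraries, against 297, 418, 324 and 446 CPM in the DMSO libraries, while with no deletion it was at 6.5 to 10.6 CPM with drug and 384 to 482 CPM with DMSO. The difference of the LFCs was 4.92 ± 0.42, adjusted p = 4.0e-12. *YHB1*, the nitric oxide detoxifying flavohemoglobin, had 914, 589.6, 1577 and 1535 CPM in the 1-NM-PP1 libraries, against 1570.0, 1449, 2929.7 and 1248 CPM in the DMSO libraries. With no deletion it was at 22 to 65.1 CPM with drug (difference 4.65 ± 0.58, adjusted p = 6.3e-08). *FSH1*, a putative serine hydrolase, had 113, 188, 268 and 376 CPM in the 1-NM-PP1 libraries, against 222, 505, 531 and 526 CPM in the DMSO libraries (difference 4.05 ± 0.76, adjusted p = 0.00012), and it was lower with drug in each culture. *TPO2*, a polyamine exporter, had 103, 397, 188 and 428 CPM in the 1-NM-PP1 libraries, against 351, 359.9, 267 and 489 CPM in the DMSO libraries (difference 3.98 ± 0.67, adjusted p = 2.2e-05). None of these 4 passed the test in ΔMsn2/4, with adjusted p values of 0.044, 0.23, 0.19 and 0.58. Their LFCs in ΔMsn2/4 were -0.73, -0.64, -0.92 and -0.39, all below 0. The histone H2B gene *HTB2*, which shares sequence with *HTB1*, was at 387, 326, 97.6 and 97.3 CPM with drug and 796, 188, 139.6 and 197 CPM with DMSO (difference 3.99 ± 0.86, adjusted p = 0.00071).

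Others fell in both strains but less far in ΔMsn2/4. *BFR2*, a component of processome complexes, had 22, 16.4, 14.5 and 31.3 CPM in the 1-NM-PP1 libraries, against 176, 146, 241 and 117 CPM in the DMSO libraries, against 0 to 2.93 CPM with drug and no deletion (difference 4.14 ± 0.56, adjusted p = 3.2e-07). *RRP36*, an early pre-ribosome factor, had 3.18, 4.19, 0 and 1.42 CPM in the 1-NM-PP1 libraries, against 42.3, 28.6, 47.6 and 25.7 CPM in the DMSO libraries (difference 4.09 ± 0.98, adjusted p = 0.0025). The difference of *RRP36* did not pass without drug culture 2 (adjusted p = 0.01) or without drug culture 1, 2 or 3 with no deletion (adjusted p = 0.010 to 0.011). *GIC2*, an effector of Cdc42, had 5.49, 8.37, 21.7 and 22.7 CPM in the 1-NM-PP1 libraries, against 23.3, 40.1, 57.6 and 37.2 CPM in the DMSO libraries (difference 4.11 ± 0.80, adjusted p = 0.00019). *NOG1*, a GTPase of 60S assembly, had 30.3, 24.4, 83.2 and 49 CPM in the 1-NM-PP1 libraries, against 538, 599, 994 and 375 CPM in the DMSO libraries, against 0 to 4.69 CPM with drug and no deletion (difference 3.70 ± 0.68, adjusted p = 8.8e-05). In all, 50 of the 101 ribosome biogenesis genes, 23 of the 133 ribosomal protein genes and 9 of the 33 polymerase genes had a higher LFC in ΔMsn2/4, and 0 of these had a lower one. The shares over all genes tested were 5.05% higher and 3.51% lower. For the next 3 lists, the shares over all genes were 8.69% risen and 12.0% fallen in ΔMsn2/4. Of 16 cyclin genes and *SIC1*, 0 rose and 0 fell (1 fell without drug culture 1). Of 10 histone genes 1 rose and 1 fell, and the fall of *HTB1* (LFC -2.82 ± 0.75, adjusted p = 0.0029) did not pass with the culture as a block, without DMSO culture 1 or without drug culture 2 or 4 (adjusted p = 0.012 to 0.34). Of 27 ergosterol genes 1 rose and 1 fell (0 rose without DMSO culture 2 or drug culture 4). Of the 5 mating type a and 4 alpha markers, 0 passed, and the alpha markers took under 0.01% of counts in every ΔMsn2/4 library.

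The remaining response was compared with that of the quadruple deletion to see what depended on Rph1 and Gis1 once Msn2/4 were gone. With 1-NM-PP1, 81 genes were activated (1.40%) and 373 repressed (6.45%) in the quadruple deletion. Of the 162 genes activated in ΔMsn2/4, 42 (25.9%) were activated there and 88 (54.3%) rose, beside 6.90% of all genes, while of the 381 repressed genes 298 (78.2%) were repressed there. The difference of the LFCs (ΔMsn2/4 minus quadruple deletion) passed for 22 genes (0.381%), all with a higher LFC in ΔMsn2/4. In 17 of the 22 genes all 4 ΔMsn2/4 DMSO libraries were below all 4 quadruple deletion DMSO libraries. With drug, all ΔMsn2/4 libraries were above all quadruple deletion libraries in 7 genes and below them in 2, and 13 overlapped. These counts are descriptions, with no test of the DMSO levels. The 22 genes were picked by a difference computed from these same libraries, so some separation is built in. The share of all genes with such a separation was not counted. No gene had a lower LFC, with 83 genes lower at an unadjusted p under 0.05 and 0 by DESeq2. Of the 22 genes, 21 rose in ΔMsn2/4, beside 8.69% of all genes, and the way they were picked favours such a rise. The labels of the quadruple deletion could not be checked on RPH1, which had 0 counts in every library, and *GIS1* did not separate the strains. It had 7 to 26 counts with drug and 0 to 6 with DMSO in the quadruple deletion, against 5 to 28 with drug and 1 to 8 with DMSO in ΔMsn2/4.

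*TPK2*, a catalytic subunit of PKA (chromosome XVI, 166256 to 167398, plus strand), had 202, 234, 217 and 181 CPM in the 1-NM-PP1 libraries, against 37.2, 50.8, 37.1 and 75.2 CPM in the DMSO libraries in ΔMsn2/4 (LFC 2.06 ± 0.22, adjusted p = 1.5e-10). In the quadruple deletion it had 256, 303, 268 and 309 CPM with drug and 187, 184, 151 and 266 CPM with DMSO, higher than ΔMsn2/4 in both conditions. The difference of the LFCs was 1.53 ± 0.29, adjusted p = 0.0019, or 1.42, adjusted p = 0.011 without DMSO culture 1. *TPK2* also rose with no deletion (LFC 2.46 ± 0.22, adjusted p = 2.1e-13), and its difference between ΔMsn2/4 and no deletion was -0.40 ± 0.29, adjusted p = 0.46. *TPK3* had 59.5, 68.1, 130.2 and 165 CPM in the 1-NM-PP1 libraries, against 86.7, 168, 187 and 184 CPM in the DMSO libraries in ΔMsn2/4 (LFC -0.59 ± 0.42, adjusted p = 0.33). Of the 15 genes of the PKA pathway tested, 4 rose and 1 fell in ΔMsn2/4, beside 8.69% and 12.0% of all genes, with 2 risen without drug culture 4. Among them, *BCY1*, the regulatory subunit (LFC 0.92 ± 0.22, adjusted p = 0.0011), and *IRA1*, a Ras GTPase activator (LFC 0.69 ± 0.20, adjusted p = 0.0056), rose beside *TPK2*, and *RAS1* fell (LFC -1.83 ± 0.29, adjusted p = 1.8e-06). *BCY1* did not pass with the culture as a block or without drug culture 4 (adjusted p = 0.011). *IRA1* did not pass with the culture as a block, without DMSO culture 2, 3 or 4 or without drug culture 1, 2 or 4 (adjusted p = 0.013 to 0.069).

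Other genes of the 22 encode metabolic and stress functions, and they are named here after their values were seen. *PNC1*, a nicotinamidase, had 386, 443, 278 and 168 CPM in the 1-NM-PP1 libraries, against 39.4, 23.1, 27.1 and 32.8 CPM in the DMSO libraries in ΔMsn2/4. In the quadruple deletion it had 302, 369, 392 and 345 CPM with drug and 147, 139, 101 and 159 CPM with DMSO (difference 2.02 ± 0.37, adjusted p = 0.0013). *HYR1*, a thiol peroxidase, had 1324, 1477, 1019.9 and 1729 CPM in the 1-NM-PP1 libraries, against 540.1, 488, 452 and 518 CPM in the DMSO libraries in ΔMsn2/4. In the quadruple deletion it had 1184, 1032, 1090.4 and 1361 CPM with drug and 1480.4, 1067, 1186 and 1169.6 CPM with DMSO (difference 1.55 ± 0.28, adjusted p = 0.0013). *COX5B* had 163, 170.1, 127 and 158 CPM in the 1-NM-PP1 libraries, against 28.4, 25.2, 15.2 and 15 CPM in the DMSO libraries in ΔMsn2/4. In the quadruple deletion it had 74.2, 54.2, 65.7 and 56.5 CPM with drug and 22.3, 33.6, 27.8 and 28.7 CPM with DMSO (difference 1.72 ± 0.26, adjusted p = 0.00015). For *PNC1* and *HYR1* the drug libraries overlap and the DMSO libraries of the quadruple deletion are higher, whereas for *COX5B* the DMSO libraries overlap and the ΔMsn2/4 drug libraries are higher. *NDE2* (3.66 ± 0.62, adjusted p = 0.00045), *GPG1* (3.35 ± 0.54, adjusted p = 0.00019), *MSC1* (2.57 ± 0.41, adjusted p = 0.00017) and *GSP2*, a Ran homolog (2.90 ± 0.53, adjusted p = 0.0013), had differences of the same sign, as did *YJL163C*, *UGX2*, *MCO32*, *YIL055C* and *YMR181C*. A further 9 were not past the threshold without some 1 library: *TPK2* above, *GPD1*, *VID30*, *YGR130C*, *GPC1*, *YIL100C-A*, *ECM4*, *LSP1* and *YLR297W*. *HSP12*, with 16.5, 15.3, 39.2 and 47.7 CPM with drug in the quadruple deletion, had a difference of 5.27 ± 1.23, adjusted p = 0.018, short of the threshold. CCCCT was present in 18 of the 21 promoters read for these genes (85.7%), next to 45.0% of all.

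**Figure D5:**
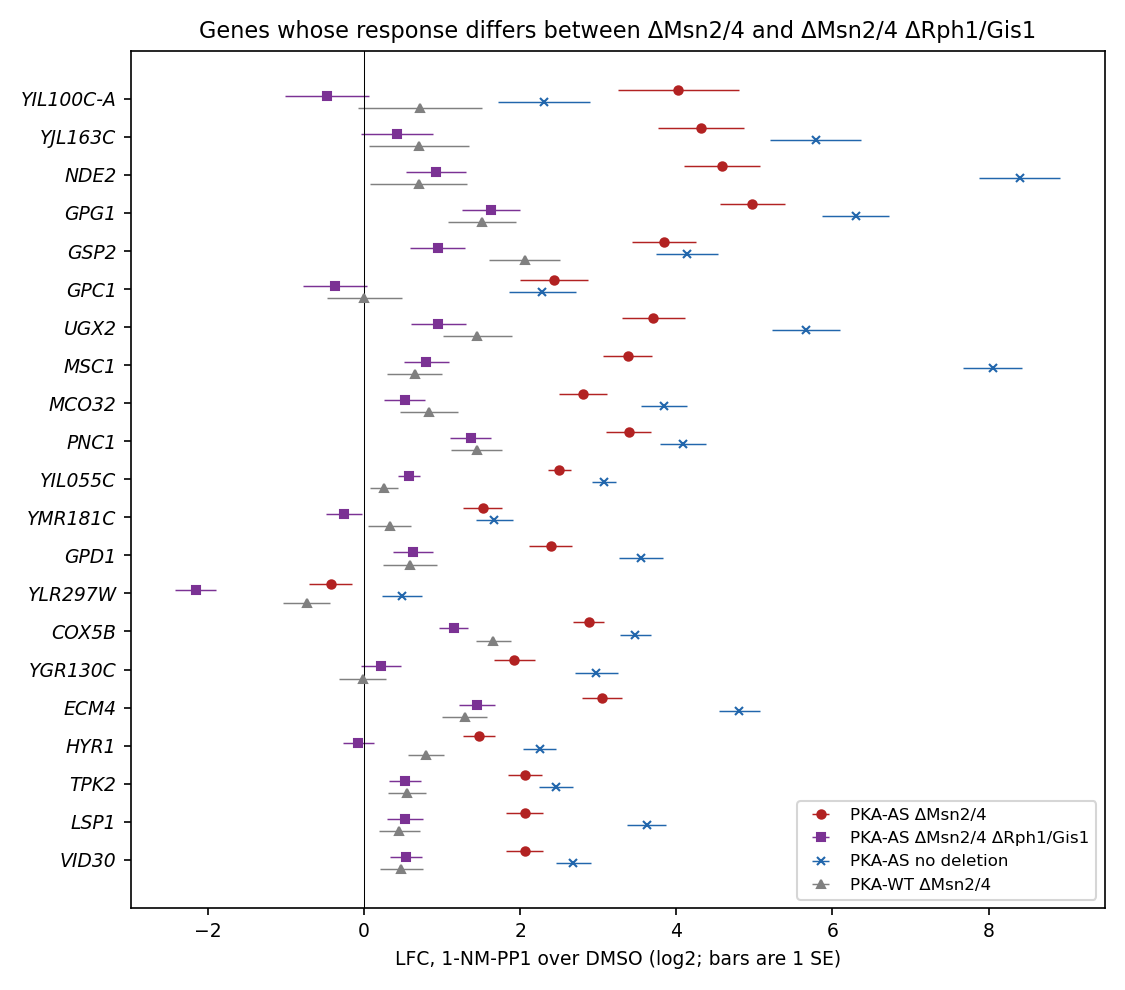
LFC (log2, 1-NM-PP1 over DMSO) of 21 of the 22 genes whose response differed between PKA-AS ΔMsn2/4 (red circles) and the quadruple deletion (purple squares), with PKA-AS no deletion (blue crosses) and PKA-WT ΔMsn2/4 (grey triangles) beside them; bars are 1 SE of the fit. All 21 lie higher in ΔMsn2/4 than in the quadruple deletion, and *TPK2* lies at 2.06 in ΔMsn2/4, 0.53 in the quadruple deletion and 0.55 in PKA-WT ΔMsn2/4.

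The effect of 1-NM-PP1 itself was read from the PKA-WT ΔMsn2/4 strain, where the drug has no engineered target. There, 14 genes changed (0.242%), 10 rising (0.173%) and 4 falling (0.0692%). Of the 14, 12 also changed in PKA-AS ΔMsn2/4, where 1194 of the 5779 genes tested changed. Across the 5779 genes, which are not independent replicates, the LFCs of both strains had a Pearson r of 0.384 and a Spearman rho of 0.477. The 14 calls rest on 3 cultures per group of PKA-WT ΔMsn2/4, so smaller effects of the drug may not have passed there. The multidrug transporters *PDR5* (LFC 2.53 ± 0.40, adjusted p = 0.00012) and *YOR1* (LFC 2.45 ± 0.26, adjusted p = 7.0e-09), named after their values were seen, rose there. In PKA-AS ΔMsn2/4, *PDR5* had 493, 293, 684 and 308 CPM in the 1-NM-PP1 libraries, against 88.2, 82, 173 and 57.5 CPM in the DMSO libraries (LFC 2.14 ± 0.34, adjusted p = 2.0e-06). *YOR1* had 404, 313, 412 and 227 CPM in the 1-NM-PP1 libraries, against 69.2, 53.8, 65.5 and 43.4 CPM in the DMSO libraries (LFC 2.54 ± 0.22, adjusted p = 1.2e-12). Their rise is thus similar in size with and without the analog-sensitive alleles, although that difference was not tested. *COX5B*, at an LFC of 1.66 ± 0.22, adjusted p = 3.6e-06 in PKA-WT ΔMsn2/4, was also among the 14, as was *ATG40*. The 162 genes activated in PKA-AS ΔMsn2/4 had a median LFC of 0.69 in PKA-WT ΔMsn2/4, and the 381 repressed genes one of -0.53.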

How the data were processed

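RNA from exponential YPD cultures was made into 3′ mRNA libraries (QuantSeq FWD). Each file of raw counts per gene was deposited by the authors, who aligned trimmed reads to R64 and recounted them with HTSeq (intersection-nonempty) on an annotation extended by 3′ UTRs. Versions of the aligner and of HTSeq are not given in the sources used here, and no strand setting was found. 3′ reads are counted once per transcript, so levels were not divided by length. Rows that name no gene were left out, and 78.6 to 85.9% of the counted ΔMsn2/4 reads were on genes.

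The 5779 genes that reached 2 counts in 3 or more libraries were fitted in edgeR 4.0.16 (R 4.3.3, limma 3.58.1) over 56 cultures from 59 libraries. PKA allele, deletion and drug formed 1 factor, and 1 library whose label calls it dropped was not fitted. CPM are scaled with TMM factors. Adjusted p values are Benjamini-Hochberg over all genes tested, and the threshold was 0.01. The fit was tested on simulated data. Alternatives were DESeq2 1.42.0, other size factors and filters, fits of the compared groups alone, and each library left out in turn. Intervals cover counting error only. The labels number replicates of a strain without saying how separate the cultures were, so p values measure only the spread between replicate samples, which may be technical. That spread was estimated over all 56 cultures, not from the ΔMsn2/4 libraries alone.

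The labels state that 1 culture was divided into drug and DMSO parts, so equal numbers were taken as 1 culture. Deviations of equal-numbered libraries from their group means correlated over 4820 genes with r of 0.803, -0.0913, 0.634 and 0.207 for cultures 1 to 4. Drug culture 2 correlated more with DMSO culture 1 (0.526), and drug culture 4 more with DMSO culture 3 (0.673), so the data do not bear out the pairing for these cultures, and counts over 4 cultures rest on the labels.

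The genes named were, by rule, *MSN2* and *MSN4*, the 12 highest and 12 lowest LFCs among genes activated or repressed in ΔMsn2/4 (mean of at least 10 counts per library, same sign in 4 cultures), the 8 lowest and 8 highest differences from no deletion, and members of 32 gene lists with the largest and smallest LFCs. *APE1*, *TPK3*, *NOG1*, *GIS1*, RPH1, *PDR5*, *YOR1* and the genes of the comparison with the quadruple deletion were named after their values were seen. The members and the lists were chosen with earlier results of these data known. Of 6600 gene IDs, 5917 matched a locus tag of the RefSeq R64 annotation, from which coordinates and promoter sequences (700 bases) were read. Series tables that repeat these counts, that give the authors' rlog means, or that hold the authors' own comparisons (fold changes and p values) were not used. Values of 1 gene are not reported here.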

Additional observations from a re-analysis of the deposited data

Results flagged for a closer look

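Of 114 groups of 4 values examined, 8 had an end value set apart from the rest of its group, by Dixon's test at the 95% level, and chance alone sets apart about 1 in 20 groups. In DMSO culture 1, *RPL9A* was at 1199 CPM (gap 0.939 of the range of log2 CPM) and *RPL37B* at 369.6 CPM (gap 0.910), far above the other DMSO cultures, and *FSH1* was lowest there at 221.6 CPM (gap 0.943). *TSA2* was lowest in DMSO culture 3 at 5.95 CPM (gap 0.958). *YTP1* had its single DMSO count in culture 2 (gap 1.00) and *YDR491C* its only drug counts in culture 4 (gap 1.00). By culture, the median difference of glycolysis genes was highest in culture 2 at 0.73 (gap 0.978), and that of cytoplasmic ribosomal proteins was highest there too at -2.32 (gap 0.897).

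The response differed between ΔMsn2/4 and no deletion, by the interaction term, for each of the genes named for that difference. The difference (ΔMsn2/4 minus no deletion) was -9.13 for *ALD3*, -7.90 for *SIP18*, -7.72 for *SPG4*, -7.71 for *YBR116C*, -6.97 for *YDR491C*, -6.95 for *DDR2*, -6.91 for *TSA2* and -6.74 for *CTT1*. It was higher in ΔMsn2/4 by 4.92 for *HO*, 4.65 for *YHB1*, 4.14 for *BFR2*, 4.11 for *GIC2*, 4.09 for *RRP36*, 4.05 for *FSH1*, 3.99 for *HTB2* and 3.98 for *TPO2*.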

How the results depend on the processing

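No call of a named gene reversed under any alternative run. For 199 named genes, 3912 values were compared with the first ones: 3605 kept direction and side of the threshold (among them 104 that changed sign with neither value past it), 305 no longer passed (60 of them when only the compared groups were fitted, 39 without DMSO culture 1) and 2 passed only under the alternative. Fits of the compared groups alone, which take the spread from those groups only, gave 181 risen and 365 fallen genes in ΔMsn2/4. They gave 131 lower and 173 higher differences from no deletion. Why fewer genes passed was not tested. With the culture as a replicate block, 154 genes were activated, 395 repressed, 395 rose and 624 fell, and 229 differences were lower and 328 higher. Against an LFC of 2 itself (glmTreat), 23 genes were activated and 106 repressed. DESeq2 gave 175 activated and 386 repressed, 42 differences from the quadruple deletion and 28 changes in PKA-WT ΔMsn2/4. Leaving out 1 library gave 145 to 171 activated, 328 to 393 repressed, 418 to 473 risen and 612 to 653 fallen genes, 163 to 195 lower and 225 to 284 higher differences, 14 (without DMSO culture 1) to 23 differences from the quadruple deletion, and 9 (without PKA-WT DMSO culture 2) to 14 changes in PKA-WT ΔMsn2/4. A filter of at least 10 counts in at least 4 libraries gave 116 activated genes. In the shallow library 1 count is worth 3.62 CPM, which limits low genes there.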
